A study of Sus scrofa with 12 samples.

Results

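The genes described here are the TGF-β ligands TGFB1, TGFB2 and TGFB3, the latent TGF-β binding proteins LTBP1, LTBP2, LTBP3 and LTBP4, the receptors TGFBR1 and TGFBR2, and TGFBI, a matrix protein named for its induction by TGF-β. These 10 genes were chosen by name, with earlier results of these data known. They were matched to pig gene identifiers by symbol, out of 35682 genes counted in the files. All 10 were found, and all 10 passed the filter on low counts that left 13844 genes to be tested.

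RNA was sequenced from the hearts of 6 female Yorkshire pigs (Sus scrofa), with 1 border zone and 1 remote zone library per animal, so that the 12 libraries pair by animal. The animals are named by the numbers in the sample labels, which are 1022, 1322, 1323, 1623, 1922 and 3622. Every animal had a balloon inflated in the left anterior descending coronary artery for 60 min followed by reperfusion, and from day 9 was immunosuppressed daily with 0.75 mg/kg of tacrolimus, 500 mg of mycophenolate mofetil and 20 mg of prednisolone. On day 14 a thoracotomy followed, at which some animals received vascular organoids of human endothelial progenitor cells and human smooth muscle cells and the others fibrin glue alone. The border zone is the tissue next to the visible infarct and the remote zone is posterior wall, both harvested weeks after the thoracotomy. The labels do not say which animal received organoids, so each zone holds animals of both kinds and only the zones were compared. No uninjured heart is among these libraries, so the remote zone is tissue of an injured heart under immunosuppression. RNA of the implanted human cells, where present, cannot be told apart from pig RNA in counts on pig genes.

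TGF-β is secreted as a latent complex, in which the mature ligand is held by its own propeptide and that complex is tethered to the extracellular matrix by a latent binding protein. Integrins, proteases and thrombospondin release the ligand, which then binds the type II receptor TGFBR2, and TGFBR2 activates the type I receptor TGFBR1 to phosphorylate SMAD2 and SMAD3. In the injured heart the pathway is known for driving fibroblasts towards myofibroblasts and for matrix production in the scar.

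The members lie on 7 chromosomes of the pig genome Sscrofa11.1, by the RefSeq annotation of that build. TGFB1 (chr6:49332169-49348642, minus strand) and LTBP4 (chr6:48831018-48861503, plus strand) lie 470.7 kb apart with 17 protein-coding genes between them. LTBP2 (chr7:97744974-97852848, minus strand) and TGFB3 (chr7:99133873-99162239, minus strand) lie 1281.0 kb apart with 19 protein-coding genes between them. LTBP3 lies at chr2:6701455-6720191 (plus strand) and TGFBI at chr2:138191793-138225373 (plus strand). TGFB2 lies at chr10:8306136-8435307 (plus strand), LTBP1 at chr3:106300748-106724538 (minus strand), TGFBR1 at chr1:240842735-240918267 (plus strand) and TGFBR2 at chr13:16784370-16875828 (plus strand).

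The windows from 250 bases before to 50 bases after the RefSeq start are shown for TGFB3 and LTBP2, which lie on the same chromosome and both passed the test below, and for TGFB1. Each is read 5′ to 3′ on the gene's strand, at chr6:49348593-49348892 (minus) for TGFB1, chr7:99162190-99162489 (minus) for TGFB3 and chr7:97852799-97853098 (minus) for LTBP2. Capitals mark matches on either strand to the SMAD box CAGAC, the AP-1 site TGACTCA, the GC box GGGCGG or the TATA box TATAAA.
TGFB1: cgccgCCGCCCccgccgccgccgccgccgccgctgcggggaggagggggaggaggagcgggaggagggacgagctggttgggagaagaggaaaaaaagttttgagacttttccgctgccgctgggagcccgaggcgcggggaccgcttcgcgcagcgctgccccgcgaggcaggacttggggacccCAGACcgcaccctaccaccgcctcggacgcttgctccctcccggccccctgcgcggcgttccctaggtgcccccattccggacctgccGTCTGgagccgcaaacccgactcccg
TGFB3: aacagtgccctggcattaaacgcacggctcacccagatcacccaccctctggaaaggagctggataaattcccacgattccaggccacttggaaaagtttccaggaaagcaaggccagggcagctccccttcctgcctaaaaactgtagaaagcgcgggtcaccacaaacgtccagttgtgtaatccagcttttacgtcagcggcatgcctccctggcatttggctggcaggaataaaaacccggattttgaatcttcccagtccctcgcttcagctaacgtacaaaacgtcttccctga
LTBP2: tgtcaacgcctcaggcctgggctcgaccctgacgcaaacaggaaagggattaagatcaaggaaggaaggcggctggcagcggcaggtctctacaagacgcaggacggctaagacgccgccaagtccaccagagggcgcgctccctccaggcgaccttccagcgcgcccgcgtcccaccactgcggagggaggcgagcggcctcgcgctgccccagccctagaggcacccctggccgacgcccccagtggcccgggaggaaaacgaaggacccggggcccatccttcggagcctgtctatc
The TGFB1 window held 2 SMAD boxes and 1 GC box, and the windows of TGFB3 and LTBP2 held none of these letters. No match overlapped another. Among the windows of 20664 protein-coding genes, 44.6% held the SMAD box, 3.57% the AP-1 site, 48.9% the GC box and 11.6% the TATA box. A match in such a window is a description of its letters and not of binding, and nothing is read from how these windows differ. The TGFB3 window was 52.3% G or C, against 73.3% for TGFB1 and 68.0% for LTBP2.

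Library totals on genes ranged from 15130210 to 30526110 counts for the border zone and from 20091415 to 31618680 for the remote zone. The border zone library of animal 3622 had the lowest total and counts on 28024 genes, against at most 20148 in any other library, and the remote zone library of the same animal had the highest mitochondrial share, at 33.5% of counts. That share was 5.69% to 17.3% in border zone libraries, lowest in animal 1022, and 13.6% to 33.5% in remote zone libraries. Of the 8 cardiomyocyte markers listed, 6 had an identifier and their summed level was 37360 to 64030 CPM (the count scaled by the TMM-normalized library size) in remote zone libraries and 8313 to 46410 CPM in border zone libraries, so both zones held heart muscle RNA. The border zone library of animal 1022 stood apart in the marker lists. It had the lowest cardiomyocyte sum, and its fibroblast sum was 58110 CPM against at most 11040 CPM in any other library. The fibroblast sum is mostly collagen RNA, with COL1A1 at up to 30500 CPM and COL3A1 at up to 16950 CPM. PDGFRA, TCF21 and DDR2 reached at most 60.3, 51.0 and 18.1 CPM. Log2 fold changes that were over 1.5 times smaller without animal 1022 are given with and without it.

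TGFB3, LTBP2 and LTBP3 had higher levels in border zone tissue than in remote zone tissue, and no member was called lower. These 3 of 10 members passed an adjusted p of 0.05 in the quasi-likelihood test of edgeR, where p-values were adjusted over all 13844 genes by the Benjamini-Hochberg method. Over all genes 2.07% passed, 2.06% as higher and 0.0144% as lower in the border zone. Because the members were chosen with earlier results known, shares of members beside shares of all genes are descriptions here and below. Differences are given as log2 fold changes of border zone over remote zone with standard errors (SE). With the animal as a block, which uses the pairing of the zones, 0 of 10 members passed, against 0.296% of all genes, while 8 of 10 had an unadjusted p-value under 0.05 in each fit, as did 3425 of all 13844 genes with region only and 4069 with the block. The DESeq2 Wald test called 6 of 10 members, where it called 10.7% of all genes, and edgeR with library totals in place of TMM called 7 of 10, where it called 11.2%. The median log2 fold change of the members was 1.16, 1.05 with the block and 0.71 without animal 1022, beside 0.04 over all genes tested. In bulk tissue, a change in the number of cells of a type and a change in RNA per cell cannot be told apart.

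**Figure D1:**
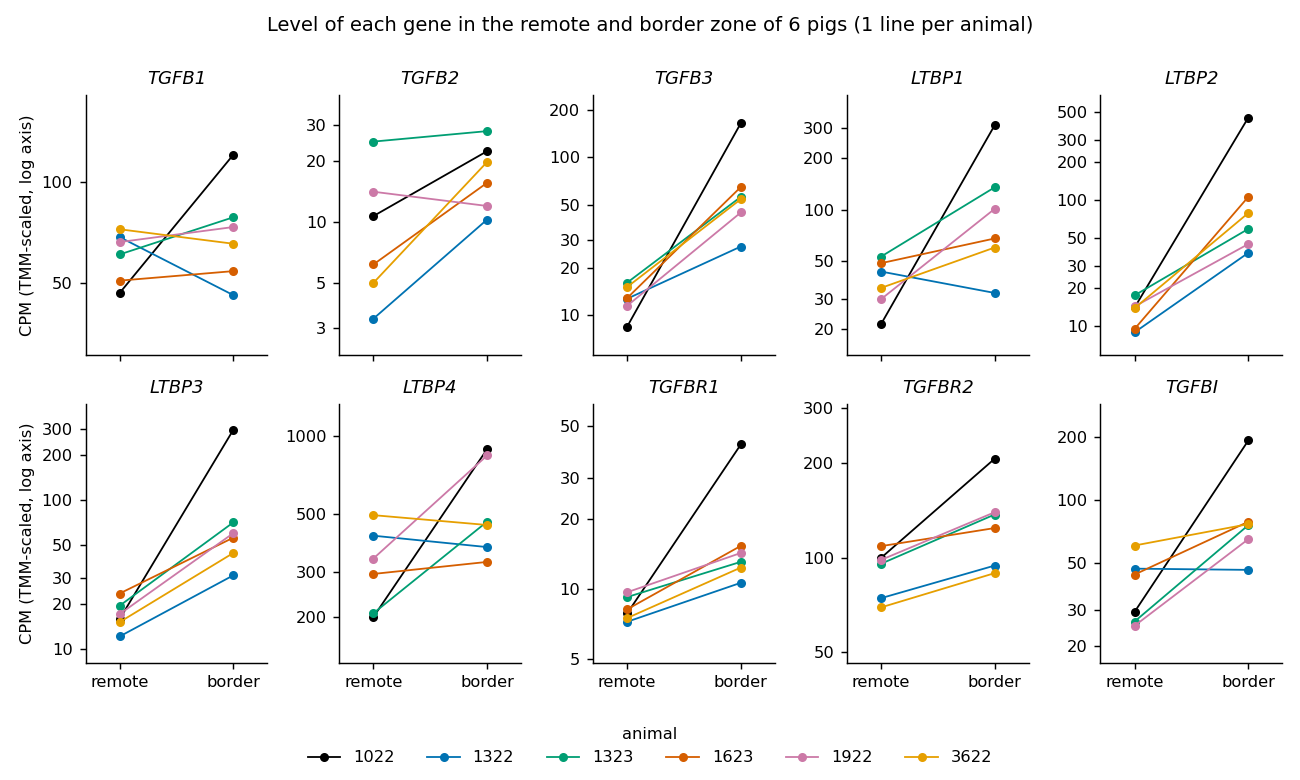
Level of each of the 10 genes in CPM (log axis) in the remote and the border zone, with 1 line and 1 colour per animal. For TGFB3, LTBP2, LTBP3, TGFBR1 and TGFBR2 the border zone point is above the remote zone point in 6 of 6 animals, and the border zone library of animal 1022 is the highest point of every panel but that of TGFB2.

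Among the ligands, TGFB3 was higher in the border zone, whereas TGFB1 and TGFB2 did not pass the test. TGFB3 is the isoform best known from palate and embryonic tissue fusion, and is also expressed by stromal cells of the heart. Its level was lowest at 27.3, with a median of 55.3 and a highest value of 164.8 CPM, in the border zone libraries, and lowest at 8.47, with a median of 12.8 and a highest value of 16.1 CPM, in the remote zone libraries. The zones did not overlap, and the smallest border zone value, in animal 1322, was above the largest remote zone value, in animal 1323. This was so for 4 of 10 members (TGFB3, LTBP2, LTBP3 and TGFBR1) and for 1.99% of all genes tested. Within animals the border zone level was between 2.14-fold (animal 1322) and 19.5-fold (animal 1022) the remote zone level, and between 3.50-fold and 5.05-fold in the other 4. The fitted log2 fold change of TGFB3 was 2.43 (SE 0.37, adjusted p = 0.0123). With the animal as a block it was 2.18 (adjusted p = 0.0564), and without animal 1022 it was 1.85 (adjusted p = 0.00478). The size of the rise was thus smaller without the highest library, with a smaller adjusted p. Without animal 1323, 1623, 1922 or 3622, each left out in turn, the adjusted p was above 0.05 and reached at most 0.103.

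TGFB1, the isoform most studied in fibrosis, did not pass the test. It was at 46.1 to 120.4 CPM (median 69.5) in border zone libraries and at 46.8 to 72.3 CPM (median 63.6) in remote zone libraries. The ranges overlapped, and only 3 border zone libraries (animals 1022, 1323 and 1922) were above the highest remote zone library. In animals 1322 and 3622 the border zone had less TGFB1 than the remote zone, at 0.672-fold and 0.906-fold. The fitted log2 fold change was 0.26 (SE 0.22, adjusted p = 0.475). Without animal 1022 it was -0.0081 (SE 0.17, adjusted p = 0.991), which is not told apart from 0. With library totals it was 0.61 (adjusted p = 0.122).

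TGFB2, which binds TGFBR2 weakly without the co-receptor betaglycan, had the lowest median of the ligands in both zones. It was at 10.3 to 28.0 CPM (median 17.7) in border zone libraries and at 3.34 to 24.9 CPM (median 8.44) in remote zone libraries. The remote zone library of animal 1323 was above 5 of the 6 border zone libraries, and the SD of log2 CPM was larger in the remote zone (1.05) than in the border zone (0.55), the reverse of the other 9 members. The border zone level was higher in 5 of 6 animals, with animal 1922 the exception at 0.851-fold. Its log2 fold change was 0.75 (SE 0.43, adjusted p = 0.291), and 0.98 with the block (adjusted p = 0.0933).

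The make-up of the ligand pool was compared after dividing each CPM by the exon length of the gene in kilobases, since only levels per length can be set against each other between genes. On that scale TGFB3 made up 28.5% to 48.3% (median 33.5%) of the summed ligand level in border zone libraries and 10.5% to 14.9% (median 12.3%) in remote zone libraries. TGFB1 made up 48.7% to 66.8% of it on the border zone side and 75.2% to 86.9% on the remote zone side. Per length it had the largest share in every library, though in the border zone of animal 1022 TGFB3 came close, at 48.3% against 48.7%. With no division by length TGFB3 had the larger share in the border zone of animals 1022 (53.6% against 39.2%) and 1623 (48.2% against 40.3%). TGFB2 had a median share of 5.0% in the border zone and 4.7% in the remote zone, higher in 3 of 6 animals. The zones did not overlap for TGFB3 or TGFB1, while for TGFB2 they did. The ratio of TGFB3 to TGFB1 per length was 0.428 to 0.991 in border zone libraries and 0.126 to 0.192 in remote zone libraries, higher on the border zone side in 6 of 6 animals. The summed ligand level was 25.1 to 89.7 CPM per kilobase in border zone libraries and 20.5 to 30.8 in remote zone libraries, so the totals overlapped where the ratio did not. These shares are descriptions, and no test was run on them.

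**Figure D2:**
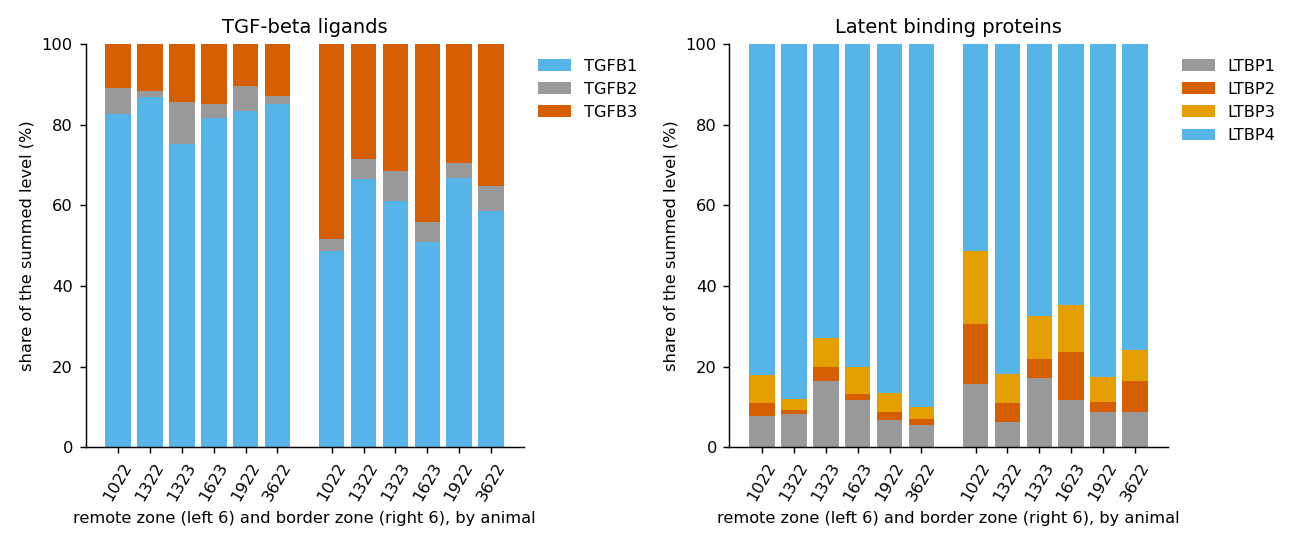
Share of each ligand (left) and of each latent binding protein (right) in the summed level per exon length of its family, in percent, with 1 stacked bar per library, the 6 remote zone libraries to the left and the 6 border zone libraries to the right of each panel. The share of TGFB3 is 10.5% to 14.9% in the remote zone and 28.5% to 48.3% in the border zone, and LTBP4 holds over 50% of the binding protein level in all 12 libraries.

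Among the latent binding proteins, LTBP2 and LTBP3 were higher in the border zone, and LTBP1 and LTBP4 did not pass the test. LTBP2 is the family member that does not bind latent TGF-β and is known as a fibrillin-associated protein of elastic matrix. It was at 38.2 to 449.6 CPM (median 69) in border zone libraries and at 8.96 to 17.6 CPM (median 14.0) in remote zone libraries. The zones did not overlap, and LTBP2 had the largest spread of the 10 members over the 12 libraries, with an SD of 1.69 in log2 CPM. The border zone library of animal 1022 alone held 57.9% of the summed border zone level, where 16.7% would be an equal share. Within animals the border zone level was 3.12-fold (animal 1922) to 31.9-fold (animal 1022) the remote zone level, with animal 1623 second. The log2 fold change of LTBP2 was 3.31 (SE 0.58, adjusted p = 0.0237), 2.69 with the block (adjusted p = 0.0564) and 2.34 without animal 1022 (adjusted p = 0.00635).

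Part of LTBP2 is shared with another gene. In the RefSeq annotation, 1518 bases of LTBP2 exons (16.5%) lie on ISCA2, a gene of iron-sulfur cluster assembly on the opposite strand, and the libraries were nondirectional. ISCA2 itself was at 3.27 to 9.30 CPM over the 12 libraries, with a log2 fold change of -0.34 (adjusted p = 0.363), while LTBP2 was at 8.96 to 17.6 CPM in remote zone libraries and at 38.2 CPM or more in border zone libraries. How many reads of this shared stretch were counted on either gene was not tested. TGFB3 shared 93 exon bases (2.44%) with IFT43, also on the opposite strand. IFT43 was at 4.87 to 26.5 CPM over the 12 libraries, with a log2 fold change of 0.23 (adjusted p = 0.789). TGFB3 was at 8.47 to 16.1 CPM in remote zone libraries and at 27.3 CPM or more in border zone libraries. TGFB1 shared 127 exon bases (4.6%) with an unnamed gene on its own strand, and LTBP1 shared 459 and 105 with a pair of non-coding genes on the opposite strand.

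LTBP3, which carries latent TGF-β and is known from bone and tooth development, was at 31.1 to 294.3 CPM (median 57.7) in border zone libraries and at 12.1 to 23.5 CPM (median 16.5) in remote zone libraries. The zones did not overlap, and 5 of the 6 border zone libraries lay between 31.1 and 70.5 CPM, below the library of animal 1022. The within-animal ratio was 2.37-fold to 3.62-fold in 5 animals and 18.6-fold in animal 1022. Its log2 fold change was 2.43 (SE 0.49, adjusted p = 0.0295), 1.95 with the block (adjusted p = 0.0679) and 1.58 without animal 1022 (adjusted p = 0.0101). For LTBP2 and LTBP3, as for TGFB3, the call was lost when animal 1323, 1623, 1922 or 3622 was left out and kept without animal 1022 or 1322. In the 4 fits that lost the calls the log2 fold changes were 2.46 to 2.53 for TGFB3, 3.30 to 3.53 for LTBP2 and 2.51 to 2.67 for LTBP3. LTBP3 also lost its call with no filter on low counts (adjusted p = 0.0609).

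LTBP1, a widely expressed carrier of latent TGF-β, was at 32.6 to 312.1 CPM (median 84.6) in border zone libraries and at 21.3 to 53.1 CPM (median 39.2) in remote zone libraries. It was higher in the border zone of 5 animals and lower in animal 1322, at 0.749-fold. Its log2 fold change of 1.62 (SE 0.45, adjusted p = 0.0698) was 1.25 with the block (adjusted p = 0.141) and 0.92 without animal 1022 (adjusted p = 0.185), while the DESeq2 Wald test gave an adjusted p = 0.00977. It also passed edgeR's test without animal 1322, the animal with the opposite direction.

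LTBP4, known for its role in elastic fibre assembly in lung and vessels, was the most abundant member. It was at 326.8 to 889.2 CPM (median 460.4) in border zone libraries and at 200.3 to 495.0 CPM (median 315.2) in remote zone libraries. The ranges overlapped, and only animals 1022 and 1922 had a border zone level above the highest remote zone library. In animals 1322 and 3622 the border zone level was 0.904-fold and 0.916-fold that of the remote zone. The log2 fold change was 0.78 (SE 0.31, adjusted p = 0.15), 0.75 with the block (adjusted p = 0.184) and 0.50 without animal 1022 (adjusted p = 0.426). With library totals LTBP4 passed, with 1.15 (adjusted p = 0.0319).

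Per exon length, LTBP4 made up 72.9% to 90.1% (median 84.4%) of the summed binding protein level in the remote zone and 51.5% to 82.6% (median 71.7%) in the border zone, and this share was lower on the border zone side in 6 of 6 animals. The shares of LTBP2 and LTBP3 were higher on the border zone side in 6 of 6 animals. That of LTBP2 had a median of 6.16% in the border zone against 1.78% in the remote zone, and that of LTBP3 9.24% against 5.70%. The LTBP1 share was higher in 5 of 6 animals, with medians of 10.3% and 7.89%. The ranges of all 4 shares overlapped between the zones, unlike those of TGFB3 and TGFB1 among the ligands. The summed binding protein level divided by the summed ligand level was 2.50 to 4.89 in border zone libraries and 1.85 to 3.42 in remote zone libraries, higher on the border zone side in 4 of 6 animals. That sum includes LTBP2, which does not bind latent TGF-β, and is mostly LTBP4, so the ratio does not measure carrier per ligand.

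Neither receptor passed the test with all libraries, although both were higher on the border zone side in 6 of 6 animals, which was true of 11.7% of all genes tested. TGFBR1, the kinase that phosphorylates SMAD2 and SMAD3, was at 10.6 to 41.8 CPM (median 13.7) in border zone libraries and at 7.22 to 9.67 CPM (median 8.0) in remote zone libraries. Its zones did not overlap, and its remote zone libraries were the least spread of all members, with an SD of 0.17 in log2 CPM. The within-animal ratio was 1.42-fold to 1.88-fold in 5 animals and 5.33-fold in animal 1022. Its log2 fold change was 1.12 (SE 0.31, adjusted p = 0.0646), 0.93 with the block (adjusted p = 0.0847) and 0.65 without animal 1022 (adjusted p = 0.0739), and the DESeq2 Wald test gave an adjusted p = 0.0149. Without the border zone library of animal 1022 alone, TGFBR1 passed edgeR's test, with 0.66 (adjusted p = 0.0307), and it also passed with library totals.

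TGFBR2, the receptor that binds the ligand first, was at 89.4 to 207.0 CPM (median 131.0) in border zone libraries and at 69.5 to 109.0 CPM (median 97.1) in remote zone libraries. The ranges overlapped, with the border zone libraries of animals 1322 and 3622 below the highest remote zone library. The within-animal ratio was 1.14-fold to 2.07-fold, the narrowest range of the members that were higher in every animal. Its log2 fold change was 0.54 (SE 0.21, adjusted p = 0.148), and 0.50 with the block (adjusted p = 0.0921). The ratio of TGFBR2 to TGFBR1 per exon length was 12.7 to 18.2 in the remote zone and 6.76 to 14.4 in the border zone, and it was lower on the border zone side in 5 of 6 animals, with animal 1323 the exception.

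TGFBI is a secreted protein that binds collagen and integrins. It was at 46.4 to 191.8 CPM (median 76.2) in border zone libraries and at 25.1 to 60.6 CPM (median 36.7) in remote zone libraries. Of the border zone libraries, 5 were above the highest remote zone library, and that of animal 1322 was at 0.987-fold its own remote zone library. The log2 fold change was 1.20 (SE 0.33, adjusted p = 0.0671), 1.12 with the block (adjusted p = 0.0923) and 0.75 without animal 1022 (adjusted p = 0.172), and the DESeq2 Wald test gave an adjusted p = 0.0176.

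**Figure D3:**
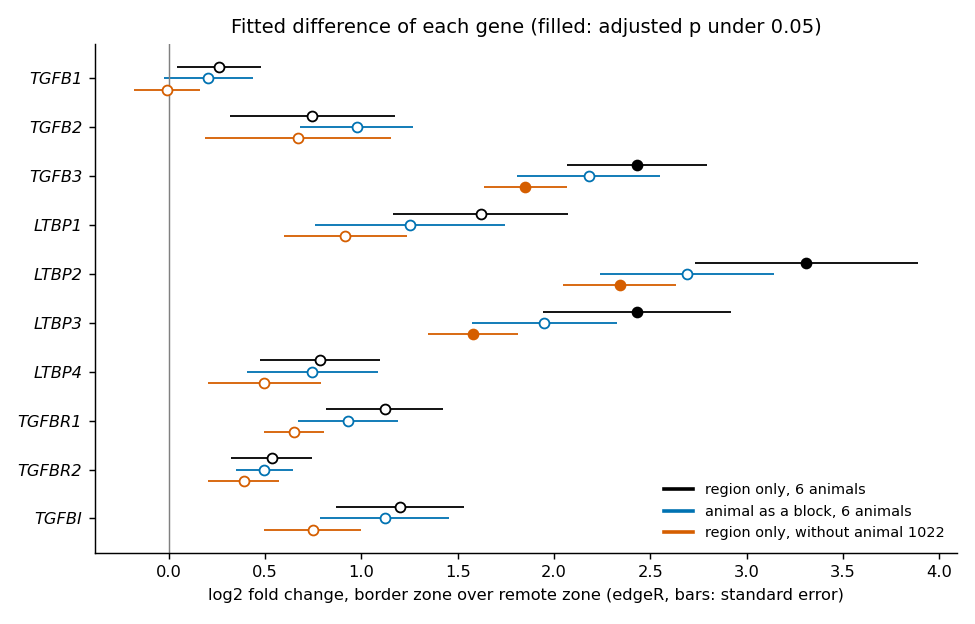
Fitted log2 fold change of each of the 10 genes, border zone over remote zone, with bars of 1 standard error, from the fit with region only (black), the fit with the animal as a block (blue) and the fit without animal 1022 (orange). Filled points have an adjusted p under 0.05, which are TGFB3, LTBP2 and LTBP3 in the black and the orange fit and no gene in the blue fit.

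Ordered by level per exon length, LTBP4 came first in both zones, at a median of 88.3 CPM per kilobase in the border zone and 60.4 in the remote zone, and in each zone its range lay wholly above that of the next gene. In the remote zone it was followed by TGFB1, TGFBR2, TGFBI, LTBP1, TGFB3, LTBP3, LTBP2, TGFBR1 and TGFB2. In the border zone the order was TGFBR2, TGFBI, TGFB1, TGFB3, LTBP1, LTBP3, LTBP2, TGFBR1 and TGFB2 after LTBP4. Neighbours in these orders had overlapping ranges except for LTBP4 above the next gene in both zones, TGFBI above LTBP1 in the remote zone and LTBP3 above LTBP2 in the remote zone. TGFB1 and TGFBR2, at medians of 23.1 and 22.5 CPM per kilobase in the remote zone, were not separated, and neither were TGFB3 and LTBP1, at 14.5 and 14.2 CPM per kilobase in the border zone. The lengths are of all annotated exons of a gene joined, so a gene that uses a shorter transcript is understated.

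Across the border zone libraries, the same animals held the extremes for most members. The library of animal 1022 was the highest for 9 of the 10 members and held 20.7% to 57.9% of each member's summed border zone level, where an equal share is 16.7%. The library of animal 1322 was the lowest for 8 of 10. The SD of log2 CPM was larger in the border zone for 9 members, and for 7 with the library of animal 1022 left out. Among border zone libraries, the same library had the highest fibroblast, smooth muscle, macrophage, endothelial and lymphocyte marker sums and the lowest cardiomyocyte sum. The fibroblast list (8 of 8 genes with an identifier, none at 0 in any library) summed to 2839 to 58110 CPM in border zone libraries and 957 to 2518 CPM in remote zone libraries, higher in 6 of 6 animals. Of its genes 5 were called higher, beside 2.06% of all genes. With the animal as a block COL1A1, COL1A2, COL3A1 and LUM did not pass (adjusted p = 0.0821, 0.0844, 0.0814 and 0.0798). The smooth muscle and pericyte list (7 of 7 genes, none called) summed to 472 to 2955 CPM against 209 to 568 CPM, and the macrophage list (8 of 8, none called) to 100.5 to 1244 CPM against 95.3 to 189.7 CPM, each higher in 5 of 6 animals. The endothelial list (7 of 7, none called) summed to 310.3 to 470.1 CPM against 222.5 to 501.6 CPM, higher in 3 of 6, and the sum of the cardiomyocyte list was higher in 0 of 6. The lymphocyte list (6 of 6, with the B cell gene MS4A1 at 0 in some library) reached at most 22.5 CPM in any library, and the 2 of 4 megakaryocyte and platelet genes with an identifier, cells that store TGF-β1, reached at most 5.81 CPM. The part of these cell types in the levels of the members was not tested.

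Differences were also compared between members within each animal. The log2 difference between zones was larger for TGFB3 than for TGFB1 in 6 of 6 animals, larger for LTBP2 than for LTBP4 in 6 of 6, and larger for TGFBR1 than for TGFBR2 in 5 of 6. Between LTBP2 and LTBP3 the order was mixed, with LTBP2 larger in 4 of 6 animals. These pairs share their libraries and are given as descriptions.

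The genes whose level most resembled that of LTBP2, the member with the largest spread, were COL8A1, PI16, THBS3, KCNMA1 and ITGA11. Likeness was the root mean square difference of log2 CPM, each gene centred on its own mean, over the 12 libraries, and was 0.214 for COL8A1, 0.353 for PI16, 0.359 for THBS3, 0.385 for KCNMA1 and 0.387 for ITGA11. COL8A1 encodes a short-chain collagen, PI16 is a marker of adventitial fibroblasts, THBS3 a thrombospondin, KCNMA1 a calcium-activated potassium channel and ITGA11 a collagen-binding integrin. Among 11725 genes ranked in this way, TGFB3 was at rank 16 (0.522) and LTBP3 at rank 42 (0.595), while TGFB1 was at rank 3145 (1.44). LTBP4, of the same family, was at rank 2209 (1.34).

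Of 54 other genes of the pathway, listed by role, 52 were tested. Of these, 12 passed the test, all of them higher in the border zone, beside 2.07% of all genes. The lists were chosen with earlier results of these data known, so this count is a description and not an independent comparison with all genes. The 52 genes had a median log2 fold change of 1.13, and 0.73 without animal 1022. With the animal as a block 1 passed, beside 0.296% of all genes. Without animal 1323, 1623, 1922 or 3622 none did, and of all genes 3, 0, 15 and 0 did. The genes that passed were uneven across roles, with 8 of the 12 among the 13 response genes tested. None was among the 4 co-receptors and other receptors, 5 SMADs and 6 intracellular negative regulators, which are smaller lists.

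**Figure D4:**
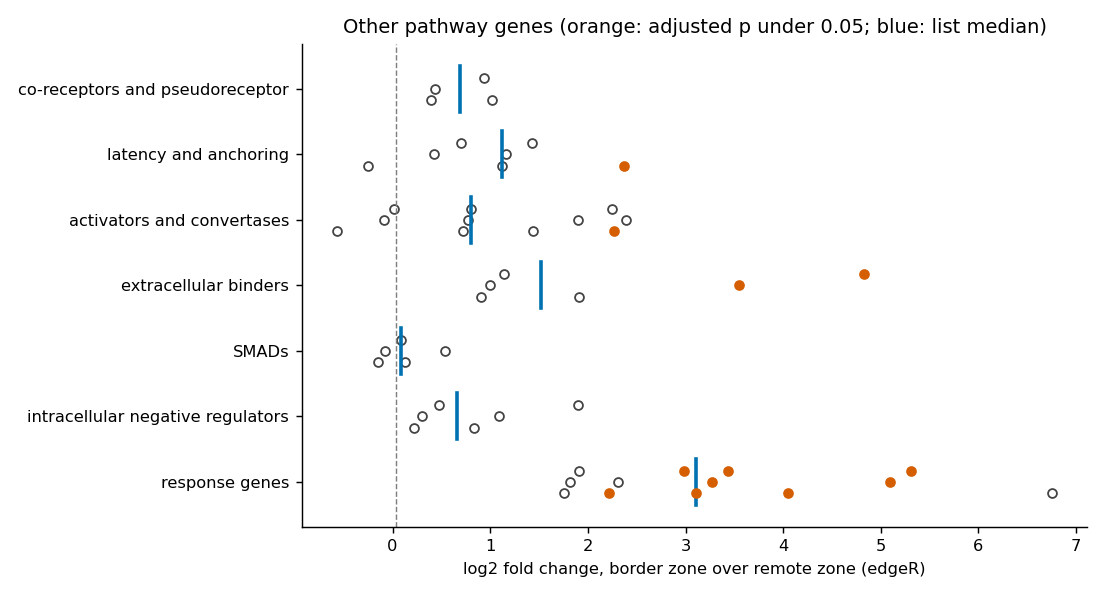
Fitted log2 fold change, border zone over remote zone, of the 52 tested genes of 7 pathway lists, 1 point per gene, with blue bars at the median of each list and a dashed line at the median of all genes tested (0.04). Orange points have an adjusted p under 0.05, and 8 of the 12 lie in the list of response genes, whose median is 3.11, while the SMADs lie around a median of 0.09.

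Of the proteins that anchor or store latent TGF-β, 1 of 7 passed. This was FBN1, the fibrillin to which latent binding proteins attach, which was at 96.1 to 656.8 CPM in the border zone and had a log2 fold change of 2.37 (SE 0.45, adjusted p = 0.0276, and 0.0634 with the block), or 1.60 without animal 1022. EMILIN1, which holds back processing of the TGF-β1 precursor, had 1.43 (adjusted p = 0.0973), and 0.62 without animal 1022. Of the activators and convertases, 1 of 11 tested passed, the gelatinase MMP2 with 2.27 (SE 0.49, adjusted p = 0.0338, and 0.0895 with the block), or 1.40 without animal 1022. The integrin subunit ITGB3 had 2.39 (adjusted p = 0.0876), and 0.80 without animal 1022.

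Of the extracellular proteins that bind TGF-β, 2 of 6 passed, both small leucine-rich proteoglycans. FMOD had a log2 fold change of 4.83 (SE 0.93, adjusted p = 0.0276) and BGN 3.55 (SE 0.72, adjusted p = 0.0316), and with the block their adjusted p was 0.0773 and 0.0814. Both were smaller without animal 1022, at 2.90 for FMOD and 2.12 for BGN. HTRA1, a protease that cleaves TGF-β binding matrix proteins, had 1.91 (adjusted p = 0.0582), and 1.0 without animal 1022.

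None of the 4 co-receptors and other receptors, 5 SMADs and 6 intracellular negative regulators passed, and their median log2 fold changes were 0.69, 0.09 and 0.66. Of each, the gene with the largest fitted difference was BAMBI, a decoy receptor, with 1.02 (adjusted p = 0.123), SMAD7, the inhibitory SMAD that the pathway itself induces, with 0.54 (adjusted p = 0.234), and PMEPA1, which sequesters receptor-activated SMADs, with 1.90 (adjusted p = 0.0544). Without animal 1022 the values were 0.64 for BAMBI, 0.29 for SMAD7 and 1.16 for PMEPA1.

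Of 13 response genes tested, 8 passed. These were TNC, FN1, COL1A1, COL1A2, COL3A1, LOX, POSTN and TIMP1, which encode matrix proteins, a collagen cross-linking enzyme (LOX) and a protease inhibitor (TIMP1). The log2 fold changes were 5.31 for TNC (adjusted p = 0.0253), 5.09 for FN1 (adjusted p = 0.0294), 4.05 for COL1A1 (adjusted p = 0.0295), 3.27 for COL1A2 (adjusted p = 0.0328), 3.11 for LOX (adjusted p = 0.0276) and 2.98 for COL3A1 (adjusted p = 0.0276). Without animal 1022 these 6 values were 3.53 for TNC, 2.71 for FN1, 2.37 for COL1A1, 1.98 for COL1A2, 1.92 for LOX and 2.01 for COL3A1, each with an adjusted p under 0.05. TIMP1 had 2.22 (adjusted p = 0.0338), and 1.45 without animal 1022 (adjusted p = 0.0569). POSTN, named here as the only pathway gene that passed with the block, had 3.44 (adjusted p = 0.0395), 2.78 with the block (adjusted p = 0.041) and 2.50 without animal 1022 (adjusted p = 0.0281). COMP had the largest fitted difference, 6.75, but with an SE of 1.75 and an adjusted p = 0.056, and it ranged from 4.42 to 904.3 CPM in the border zone. Its median in the remote zone was 0.0334 CPM, so this value is a fold over a level near 0, and without animal 1022 it was 3.70 (adjusted p = 0.17). The response list shares COL1A1, COL1A2 and COL3A1 with the fibroblast markers and ACTA2 and TAGLN with the smooth muscle markers, so it is not separate from the marker sums given above.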

How the data were processed

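RNA-seq libraries were poly(A)-enriched and nondirectional. The authors aligned paired reads to Sscrofa11.1 with STAR, counted reads on Ensembl genes with featureCounts, and deposited raw counts per gene for each library. MultiQC and DESeq2 are also named in the submitters' processing notes. Symbols were matched for 15623 of 35682 identifiers.

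The 10 genes and all gene lists were chosen with earlier results of these data known. Region was compared in R 4.3.3 with edgeR 4.0.16 (filterByExpr, TMM, robust quasi-likelihood test, region as the only term, Benjamini-Hochberg adjustment over 13844 genes, threshold 0.05). SE was taken as the fitted log2 difference over the root of the F statistic. This fit treats the 12 libraries as independent, although both zones come from the same animals. With 1 piece of tissue per zone and animal, p-values measure the spread between these pieces. By the titles, equal numbers mark the same animal, so the libraries pair. Their deviations from the zone means correlated with a mean r of 0.345 across genes (-0.03 to 0.572, 4 of 6 pairs over 0.1). Log2 CPM used a prior count of 2.

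Alternatives were the animal block, DESeq2 1.42.0 (Wald test, size factors), library totals, filters dropped or raised to 10 counts per library, mitochondrial genes removed, each animal left out, levels with no division by length and a prior count of 0.5. Leaving out the border zone library of animal 1022 or 3622 alone was added after seeing the data. The edgeR fits with and without the block were tested on simulated data. All members are named. Of each pathway list, up to 6 genes past the threshold with the smallest p and the 1 not past it with the largest fold change are named, and the 5 genes most like the member with the largest SD. POSTN, TIMP1, ISCA2 and IFT43 were named after their values were seen. Promoters and exon lengths were read from the RefSeq genome and annotation with Python 3.11.15 and pysam 0.24.0. Treatment groups of the animals were not analysed here, and the window and overlaps of LTBP3 are not reported here. PCR copies were not told apart from molecules.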

Additional observations from a re-analysis of the deposited data

Results flagged for a closer look

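For 26 groups of 6 libraries, made of the members and the other measures in each zone, a library was singled out where it lay far from its nearest neighbour for the range of its group. About 1 in 20 groups would be singled out by chance. This held for 3 groups, each through the border zone library of animal 1022. Its log2 CPM was 8.20 for LTBP3, where the next border zone library was at 6.14, 5.39 for TGFBR1 (next 3.95) and 7.58 for TGFBI (next 6.30). These 3 values come from 1 library and are not independent of each other. Without animal 1022, the log2 fold change was 1.58 for LTBP3, 0.65 for TGFBR1 and 0.75 for TGFBI, against 2.43, 1.12 and 1.20 with it. No cause was tested.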

How the results depend on the processing

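Of the 10 members, 3 passed with all libraries, 0 with the animal as a replicate block, 6 by the DESeq2 Wald test and 7 with library totals, a scaling under which the median over all genes went from 0.04 to 0.32 on the log2 scale. With 1 animal left out, 0 to 4 passed. The count was 0 without animal 1323, 1623, 1922 or 3622, where 6 to 8 members, and 2738, 2662, 3104 and 2448 of all genes, had an unadjusted p-value under 0.05. Of the pathway list genes, 12 passed with all libraries, 1 with the block, 28 by DESeq2, 32 with library totals, 2 with no filter and 0 to 14 with 1 animal left out. Over all genes, 287 passed (285 higher, 2 lower), 41 with the block, 1476 by DESeq2 (1186 higher, 290 lower), 1551 with library totals, 139 with no filter and 149 with at least 10 counts in every library. With 1 animal left out, 0 to 519 passed. None passed without animal 1623 or 3622. Without the border zone library of animal 3622 alone, 156 genes and 3 members passed, and without that of animal 1022 alone, 307 genes and 4 members, the fourth being TGFBR1. TGFB1 was just below 0 without animal 1022, with a log2 fold change of -0.0081 (SE 0.17), and was between that value and 0.38 with 1 animal left out.

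Of 150 values of the members under these alternatives, 124 stayed on the same side of 0 and of the threshold, 16 lost a call and 9 gained one. With no division by length, the median ligand shares in the border and remote zone were 47.6% and 72.5% for TGFB1, 11.9% and 12.1% for TGFB2 and 36.8% and 15.4% for TGFB3. The depth of 15130210 to 31618680 counts gave each member at least 69 counts in every library. With 1 piece of tissue per zone from 6 animals whose treatment was not used here, the comparisons cover the zones of these hearts alone.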

Other observations

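A pair of pathway genes did not pass the filter on low counts and entered no comparison. MMP9, a gelatinase that can release latent TGF-β, reached 550.0 CPM in border zone tissue of animal 1022 and 46.3 CPM in that of animal 1623, and was between 0.177 and 1.53 CPM in the other 4 border zone libraries. In the remote zone it did not exceed 0.468 CPM in any library. IL11, a cytokine that TGF-β induces in fibroblasts, had at most 6 counts in any library, and was at 0.0611 to 0.291 CPM in the border zone.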
